A study of Mus musculus with 6 samples.

Results

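NRF2 binding near genes of the extracellular matrix, its proteases and its integrin receptors was described in mouse embryonic fibroblasts (MEFs). The genes were chosen by name, as those starting with Col, Mmp, Adam, Adamts, Timp or Thbs followed by a digit, or with Itga, Itgb, Lama, Lamb, Lamc or Lox. A gene entered when at least 1 of the 4 NRF2 peak lists held a peak assigned to it within 50000 bp of a transcription start site (TSS). This gave 70 genes, of 6513 genes with an assigned peak within that distance. They held 104 peaks, of 10579 peaks within that distance and 16057 in all. The presence of a peak therefore chose the genes, and how many have one is a description.

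The cells were of the 129S6/SvEvTac strain and were either GCN2-/- (GCN2 KO) or wild type (WT). GCN2 is the kinase that senses uncharged tRNA when amino acids run short. Each genotype was kept for 24 h in DMEM without leucine or in complete DMEM, and chromatin was precipitated with an NRF2 antibody (ab62352, Abcam) and sequenced. GCN2 KO cells gave 4600 peaks without leucine and 3141 in complete medium, and WT cells gave 5980 and 2336 in the same media. Each list came from 1 library, the read depth behind it is unknown, and no difference below has a replicate check or a p-value. The lists measure neither gene expression nor the disruption of the GCN2 gene, so fibroblast identity and the knockout were not checked.

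NRF2 is a basic leucine zipper factor that pairs with small Maf proteins at antioxidant response elements and is known for detoxification, glutathione and iron genes. The matrix that fibroblasts lay down consists of collagens, laminins and other glycoproteins, which lysyl oxidases crosslink. Metalloproteinases of the MMP, ADAM and ADAMTS families cut matrix and cell-surface proteins, TIMPs inhibit them, and integrins, dimers of an alpha and a beta chain, tie cells to the matrix.

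NRF2 peaks near these genes were mostly in introns and mostly found in 1 list. The 104 peaks fell into 94 separate regions, of which 88 were in a single list, 4 in a pair of lists, none in 3 and 2 in all 4. Regions in at least 2 lists thus made 6.38% (6 of 94, 95% interval 2.38 to 13.4), and among all regions within 50 kb of a TSS the share was 7.06%. Regions in all 4 lists made 2.13% (0.259 to 7.48), beside 2% of all such regions. Intervals here and below are exact Clopper-Pearson intervals, and they cover counting error only.

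The 2 sites present in every list lay in introns and were assigned to Adam23 and Mmp19. Adam23 encodes a cell-surface ADAM without protease activity that takes part in adhesion. Its site was in intron 2 of 23, 4360 to 4428 bp downstream of the TSS, at chromosome 1, 63450128 to 63450428 in WT without leucine (mm10). The transcript of that intron could not be matched to a gene, so the link to Adam23 rests on the nearest TSS. The authors' peak score was 26 in GCN2 KO without leucine, 71 in GCN2 KO in complete medium, 207 in WT without leucine and 240 in WT in complete medium. In rank this was 3026 of 4600 and 290 of 3141 in GCN2 KO without and with leucine, and 105 of 5980 and 68 of 2336 in WT without and with leucine. The Adam23 site was thus in the upper 10% of 3 lists and in the lower 50% of the GCN2 KO list without leucine. Scores come from separate peak calls, so these values do not measure a change in binding.

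Mmp19 encodes a secreted matrix metalloproteinase. Its site lay in intron 2 of 8, at chromosome 10, 128793275 to 128793575 in both GCN2 KO lists, 2472 bp downstream of the TSS. The score was 85 in GCN2 KO without leucine, 43 in GCN2 KO in complete medium, 195 in WT without leucine and 70 in WT in complete medium. The ranks were 288 of 4600, 792 of 3141, 114 of 5980 and 366 of 2336. As a position from the top of the list these are 6.40% in GCN2 KO without leucine, 27.6% in GCN2 KO in complete medium, 1.91% in WT without leucine and 16.4% in WT in complete medium. Mmp19 was thus in the upper 10% of both lists without leucine and further down both complete-medium lists. All 4 windows were annotated to a B3 element, a short interspersed repeat of the B2 family, and their starts lay within 20 bp of each other.

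Another 4 sites were in exactly 2 lists. Adam12, which encodes an ADAM with an adhesive and protease domain, had an upstream intergenic site at -36521 bp in WT without leucine, found in the WT lists alone at chromosome 7, 134261468 to 134261768. It scored 168 (rank 154 of 5980) in WT without leucine and 100 (rank 234 of 2336) in WT in complete medium. Itgb5, the beta chain of a vitronectin receptor, also had its site in the WT lists alone, in intron 2 of 14 at chromosome 16, 33855701 to 33856001. There the score was 176 (rank 134) in WT without leucine and 33 (rank 1385) in WT in complete medium. The window without leucine was annotated to a B3 element and the complete-medium window, which started 127 bp away, to the intron.

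Col18a1, which encodes the basement membrane collagen whose end fragment is endostatin, had its shared site in the GCN2 KO lists alone, in intron 2 of 41. It scored 29 (rank 2742) without leucine and 33 (rank 1739) in complete medium, and the windows started 180 bp apart. Itgb4, the beta chain that binds laminin in hemidesmosomes, was shared by the lists without leucine, in exon 24 of 39 at chromosome 11, 115992951 to 115993251 in WT. The score was 25 (rank 3051) in GCN2 KO and 30 (rank 2557) in WT. The Col18a1 and Itgb4 windows were in the lower 50% of each list that held them. Tied scores were placed by their mean rank for this, which put Itgb4 in WT at 50.4% from the top.

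**Figure D1:**
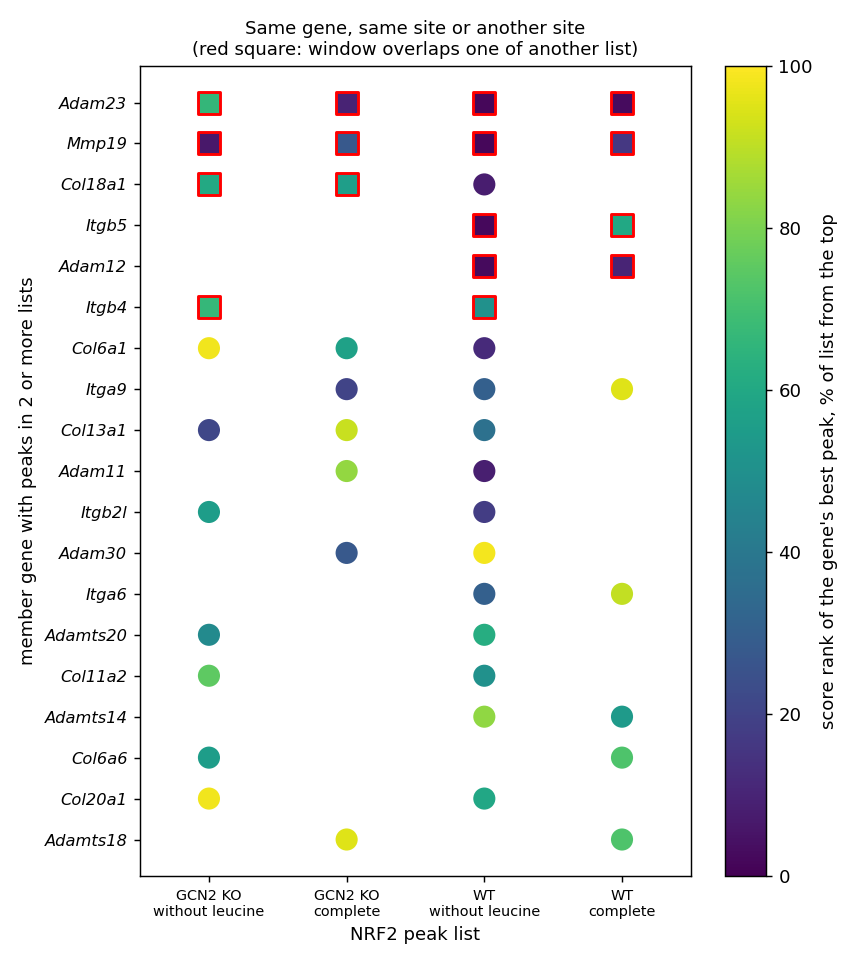
Each row is a gene with a peak in 2 or more lists (1 of the 20 such genes is not shown) and each column is a list; colour gives the score rank of the gene's best peak as a percentage of the list from the top, and squares outlined in red mark windows that overlap a window of another list. Adam23 and Mmp19 are filled across the row, 4 further genes have 1 shared site, and the other genes have peaks at different positions in different lists.

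A gene could recur without its site recurring. Of the 70 genes, 50 had a peak in 1 list, 14 in 2, 4 in 3 and 2 in all 4. Among the 20 genes with peaks in 2 or more lists, 6 had a shared region and 14 had separate positions. Neither split was computed over all genes, so these counts cannot be called usual or unusual for these lists. Col13a1, a transmembrane collagen, had 4 peaks in 4 regions over 3 lists, and Itga9, an integrin alpha chain, likewise had 4 peaks in 4 regions over 3 lists. Col18a1 held 5 peaks in 4 regions. Besides its shared site these were an intron 5 window (score 38) and an intergenic window at -40234 bp (score 74, rank 463 of 5980) in WT without leucine, and an intergenic window in GCN2 KO without leucine (score 23). The narrowest gap between windows of different lists at 1 gene without overlap was 1076 bp, at Col13a1, and the next was 1584 bp, at Col6a1.

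Collagens were the family with the most genes and peaks. NRF2 peaks lay within 50 kb of 9 of 44 collagen genes (20.5%) in GCN2 KO without leucine, 7 (15.9%) in GCN2 KO in complete medium, 14 (31.8%) in WT without leucine and 1 (2.27%) in WT in complete medium. Of all 21896 protein-coding genes, such a peak was assigned to 9.81%, 7.13%, 13.5% and 5.61% by list, and to 25.6% in any list. The collagen share was thus above that of all genes in 3 lists and below it in WT in complete medium. The 70 genes with a peak had a median length of 56.4 kb, beside 36.1 kb for the 106 genes of these families without a peak and 17.1 kb for all protein-coding genes. The part of gene length in these shares was not tested. With the lists brought to an equal length of 2336 peaks, a setting chosen after seeing the data, collagen genes numbered 3 in GCN2 KO without leucine, 5 in GCN2 KO in complete medium, 4 in WT without leucine and 1 in WT in complete medium.

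**Figure D2:**
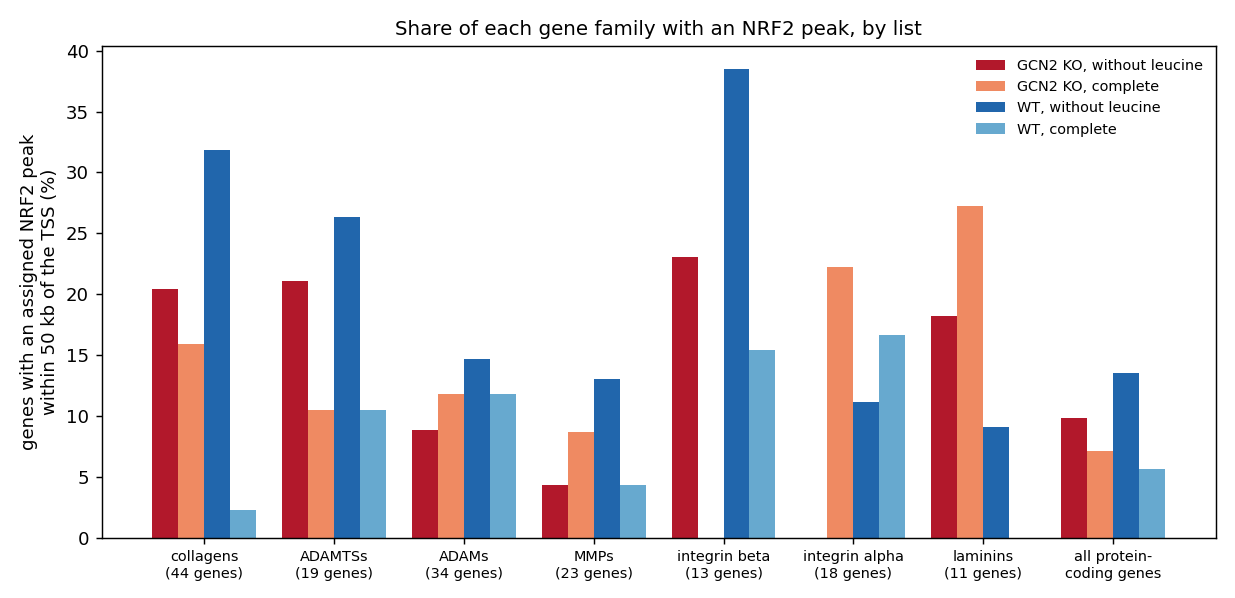
Bars give the percentage of the RefSeq genes of 7 families with an assigned NRF2 peak within 50 kb of the TSS in each of the 4 lists, and the last group of bars gives the same for all protein-coding genes. Families are taken by name prefix, so integrin beta includes Itgb1bp1, which encodes no chain. Collagens stand at 20.5%, 15.9%, 31.8% and 2.27% in GCN2 KO without leucine, GCN2 KO in complete medium, WT without leucine and WT in complete medium; families with few genes move by large steps for each gene.

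The 22 collagen genes with a peak spanned most collagen classes. Type VI, which forms beaded microfibrils, gave 5 genes, Col6a1, Col6a2, Col6a4, Col6a5 and Col6a6. Genes with a peak numbered 2, 1, 4 and 1 in GCN2 KO without leucine, GCN2 KO in complete medium, WT without leucine and WT in complete medium. Col6a1 scored 57 (rank 670) in intron 29 of 34 in WT without leucine and 32 (rank 1770) in intron 33 of 34 in GCN2 KO in complete medium. Its peak in GCN2 KO without leucine (score 16) lay in intron 14 of 15 of another gene, Pcbp3. The single collagen peak of WT in complete medium was in exon 8 of 37 of Col6a6 (score 29, rank 1592 of 2336).

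Fibrillar collagens gave 5 genes, Col2a1, Col5a2, Col5a3, Col11a2 and Col27a1, with peaks at 2, 1, 3 and 0 of them in the same list order. Their scores ran from 20 at Col27a1 in WT without leucine to 34 at Col2a1, the main cartilage collagen, in GCN2 KO without leucine (intron 1 of 52, rank 1857 of 4600). Col1a1, Col1a2 and Col3a1, which encode the chains of the main fibroblast collagens, had no assigned peak at any distance in any list. They were among 17 genes of these families that were looked up after the values were seen. Of the 17, 14 had no assigned peak, including Lox, Thbs1, Timp1, Mmp14, Itgb1, Itga5 and Itgav, and 3 had one only beyond 50 kb. Within 50 kb, 106 of the 176 genes of these families had no peak, and 25.6% of all protein-coding genes had one in any list. All 17 are among those 106, so their count is a description. A peak goes to 1 nearest gene, so a window closer to a neighbour gives these genes no count.

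The network-forming type IV collagens of basement membranes gave Col4a2, Col4a3 and Col4a4, with 1 peak each. Col4a3 and Col4a4 are neighbours on chromosome 1, read in opposite directions. GCN2 KO cells in complete medium had a window of score 42 (rank 945 of 3141) at 82587014 to 82587314, assigned to Col4a3 at 243 bp and annotated to the promoter of a Col4a4 transcript. WT cells without leucine had a window of score 18 (rank 5397 of 5980) at 82584855 to 82585155, assigned to Col4a4 at 1844 bp. Of the 116 genes of these families with a promoter in the RefSeq table (250 bases before to 50 after the TSS, GRCm38.p6, the assembly of mm10), Col4a4 was the only one whose promoter met an NRF2 window of any list. That promoter is printed because it is where a peak and a promoter sequence coincide, on the minus strand at chr1:82586800-82587099, with the 86 bases inside the GCN2 KO complete-medium window in capitals.
Col4a4: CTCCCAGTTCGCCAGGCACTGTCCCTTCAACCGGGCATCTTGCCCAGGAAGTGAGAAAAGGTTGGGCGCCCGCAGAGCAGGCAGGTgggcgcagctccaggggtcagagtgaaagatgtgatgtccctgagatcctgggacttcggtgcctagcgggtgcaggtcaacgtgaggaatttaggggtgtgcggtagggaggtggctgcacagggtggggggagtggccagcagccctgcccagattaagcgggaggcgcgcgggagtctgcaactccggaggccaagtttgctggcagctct

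These 300 bases hold neither TGACNNNGC, the core of the antioxidant response element, nor TGACTCA, the AP-1 site, on either strand. The remainder of that window lies outside the promoter table and was not searched. A TGACTCA followed by GC counts for both motifs. Of 32851 promoters in the table, 12.4% held TGACNNNGC and 5.2% held TGACTCA. A promoter was given for 40 of the 70 genes, 44 promoters in all, of which 10 (22.7%) held TGACNNNGC and 3 (6.82%) held TGACTCA. Those with TGACNNNGC belonged to Adamts2, Col13a1, Col4a2, Col6a2, Col6a5, Col7a1, Itga9, Itgb6, Timp2 and Timp4. None of these 10 promoters met an NRF2 window, and a match of letters is not a site. The shares of 22.7% and 6.82% rest on 44 promoters and carry no interval. Their difference from the shares over all promoters was not tested.

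The remaining collagens were of several kinds. Col9a3, a fibril-associated collagen of cartilage, had an exon window of score 55 (rank 591 of 4600) in GCN2 KO without leucine, and Col22a1 an intergenic one of score 61 (rank 383 of 3141) in GCN2 KO in complete medium. Col13a1 scored 46 (rank 907) and 28 in introns 1 and 2 of 40 in GCN2 KO without leucine, 21 in GCN2 KO in complete medium and 36 in WT without leucine. Col16a1 (intron 42 of 69, score 43, rank 792) had its peak in GCN2 KO in complete medium, and Col15a1, a relative of Col18a1, had an intergenic one (score 38) in WT without leucine. Col20a1 had an intron window of score 16 in GCN2 KO without leucine and an exon window of score 29 in WT without leucine. Col8a2, a short-chain collagen, had an intergenic window upstream at -2270 bp (score 24, WT without leucine). The peak assigned to Col7a1, the anchoring fibril collagen, lay in intron 8 of 12 of Uqcrc1. Over all 34 collagen peaks, 11 were in the upper 50% of their list by score.

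Of 23 Mmp genes, 4 had a peak in any list (17.4%), beside 25.6% of all protein-coding genes. By list they were 1 gene (4.35%) in GCN2 KO without leucine and 2 (8.70%) in GCN2 KO in complete medium. In WT they were 3 (13%) without leucine and 1 (4.35%) in complete medium. The shares over all protein-coding genes were 9.81%, 7.13%, 13.5% and 5.61% in that order. Mmp19 accounts for 4 of the 7 peaks. Mmp2, the gelatinase A gene of fibroblasts, had a window in intron 3 of 12 in WT without leucine (score 39, rank 1509 of 5980). Mmp25, a membrane-anchored MMP, had one in GCN2 KO in complete medium (score 29), and the window assigned to Mmp17 lay in intron 12 of 17 of Sfswap. Of the 7 peaks, 6 were in the upper 50% of their list, among them all 4 at the Mmp19 site.

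The inhibitors Timp2 and Timp4 each had 1 peak. The Timp2 window was intergenic, upstream at -10878 bp (score 41, rank 1462 of 5980, WT without leucine). The Timp4 window lay in intron 1 of 12 of Syn2 (score 39, rank 1222 of 4600, GCN2 KO without leucine), within a B4A repeat.

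ADAM genes with a peak numbered 3 of 34 (8.82%) in GCN2 KO without leucine and 4 (11.8%) in GCN2 KO in complete medium. In WT they numbered 5 (14.7%) without leucine and 4 (11.8%) in complete medium. All protein-coding genes gave 9.81%, 7.13%, 13.5% and 5.61% in that order. The highest scores of the family were those of Adam23 and Adam12 in the WT lists, given above. Adam11, a protease-inactive ADAM of nervous tissue, had a pair of windows 362 bp apart in WT without leucine, in exon 10 of 26 (score 72, rank 501) and intron 11 of 26 (score 21). Adam18, Adam5, Adam32 and Adam9 stand in 1 gene cluster on chromosome 8, and their 4 peaks lay at 4 positions over 322 kb. No position was shared: 1 was in GCN2 KO without leucine, 1 in GCN2 KO in complete medium and 2 were in WT in complete medium. Adam30 had a window in an intron of Notch2 (score 43, rank 792 of 3141) in GCN2 KO in complete medium and an intergenic one of score 16 in WT without leucine. Adam21 had an exon window of score 24 in WT without leucine. The Adam5 and Adam29 windows of GCN2 KO without leucine both scored 37 and both lay in L1 elements, a long interspersed repeat.

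ADAMTS proteases, secreted enzymes that process procollagen and proteoglycans, gave 10 of 19 genes with 13 peaks in 13 regions. The genes with a peak numbered 4, 2, 5 and 2, in the list order used above. These are 21.1%, 10.5%, 26.3% and 10.5% of the family, beside 9.81%, 7.13%, 13.5% and 5.61% of all protein-coding genes. Adamts2, the procollagen N-proteinase, had a window in intron 2 of 21 in WT without leucine (score 25, rank 3854). Adamts14, a close relative of it, had windows 8144 bp apart in the WT lists, of score 23 without leucine and 37 in complete medium. Adamts16 had the best rank of the family, 751 of 4600, in an intergenic window within an LTR element (GCN2 KO without leucine, score 48). The other ADAMTS genes with a peak were Adamts8, Adamts10, Adamts13 (the protease that cuts von Willebrand factor), Adamts17, Adamts18, Adamts19 and Adamts20, with scores from 20 to 37. Adamts18 had an exon window (score 29) in WT in complete medium. Of the 13 ADAMTS windows 7 were annotated to repeats, and 4 were in the upper 50% of their list.

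Integrin alpha genes had no peak in GCN2 KO without leucine and 4 of 18 (22.2%) in GCN2 KO in complete medium. In WT they had 2 (11.1%) without leucine and 3 (16.7%) in complete medium. Genes starting with Itgb showed 3 of 13 (23.1%), none, 5 (38.5%) and 2 (15.4%) in the same order. All protein-coding genes gave 9.81%, 7.13%, 13.5% and 5.61%. In families this small 1 gene moves the share by a large step, and the differences between lists were not tested. The name rule takes every gene with that prefix, so the 13 are not all integrin chains. Itgb1bp1 encodes an adaptor of the beta 1 tail and not a chain. Its window (score 68, rank 414 of 4600, GCN2 KO without leucine) lay in an intron of Asap2, in an LTR element. Itgb3 (score 30) and Itgb6 (score 35, within an intron of Rbms1) had 1 peak each in WT without leucine. Itga6, the alpha chain that pairs with beta 4, had separate windows in the WT lists, of score 38 without leucine and 22 in complete medium. Itga9 scored 51 (rank 581 of 3141) in GCN2 KO in complete medium, in an intron of the neighbouring gene Golga4. In WT without leucine Itga9 scored 38 and 29, and in WT in complete medium 21.

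Chains typical of leukocytes were among the genes, as Itgal, Itgam and Itgad, their common partner Itgb2, and Itgae. With the related Itgb2l they gave 6 genes and 8 peaks. They were picked from the genes with a peak, and leukocyte chains without one were not counted, so the 6 is a description. In any list, 6 of 18 genes starting with Itga (33.3%) and 7 of 13 starting with Itgb (53.8%) had a peak. Of all protein-coding genes 25.6% had one. Itgad (score 46, rank 746), Itgal (score 42, rank 945) and Itgae (score 26) had their peaks in GCN2 KO in complete medium. Itgam (score 30) and Itgb2 (score 23) had theirs in WT in complete medium. The 3 Itgb2l peaks were in the lists without leucine. In WT they scored 47 (rank 949 of 5980, in an intron of Igsf5) and 30, and in GCN2 KO 30. None of these windows was shared between lists, and a window says nothing about whether the gene is expressed.

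Laminins, the cross-shaped proteins of basement membranes, had peaks at 2 of 11 genes (18.2%) in GCN2 KO without leucine and 3 (27.3%) in complete medium. In WT they had peaks at 1 gene (9.09%) without leucine and none in complete medium. All protein-coding genes gave 9.81%, 7.13%, 13.5% and 5.61% in that order. All 6 laminin peaks were in the lower 50% of their list, and the highest score was 34, at Lama1 in GCN2 KO in complete medium. By the mean rank of tied scores Lama1 was at 51.7% of that list from the top, close to the middle. Lama5 had an intron window of score 27 in the same list, and Lamb3 one of score 23 in WT without leucine. Lamc1, the gamma chain of most laminins, had a window in exon 1 of 28, 366 bp from the TSS (score 24, GCN2 KO without leucine), with the highest GC content of the 104 windows, 71.1%. The thrombospondin genes Thbs2 (score 19, exon 13 of 22, WT in complete medium) and Thbs4 (score 21, GCN2 KO in complete medium) had 1 peak each. Of the genes starting with Lox, Loxl4, a lysyl oxidase, had an intergenic window upstream at -46065 bp (score 42, GCN2 KO in complete medium). Loxhd1 encodes a hair cell protein and is no lysyl oxidase; it had a window of score 46 in GCN2 KO without leucine.

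The median scores of these peaks lay close to those of all peaks within 50 kb in 3 lists and lower in WT in complete medium. The median score was 30 in GCN2 KO without leucine, 33.5 in GCN2 KO in complete medium, 30 in WT without leucine and 29 in WT in complete medium. For all peaks within 50 kb the medians were 30, 34, 30 and 38. The upper 50% of the list held 42.3% of them (11 of 26, interval 23.4 to 63.1) in GCN2 KO without leucine and 45.8% (11 of 24, 25.6 to 67.2) in GCN2 KO in complete medium. In WT it held 45% (18 of 40, 29.3 to 61.5) without leucine and 21.4% (3 of 14, 4.66 to 50.8) in complete medium. All peaks within 50 kb gave 49.6%, 47.5%, 42.3% and 47.5% in that order. In both sets tied scores were placed by their mean rank. Windows of score 30 in WT without leucine, at 50.4% from the top, thus fell in the lower 50%. The WT list in complete medium had the lowest share, and its interval includes that of all peaks.

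**Figure D3:**
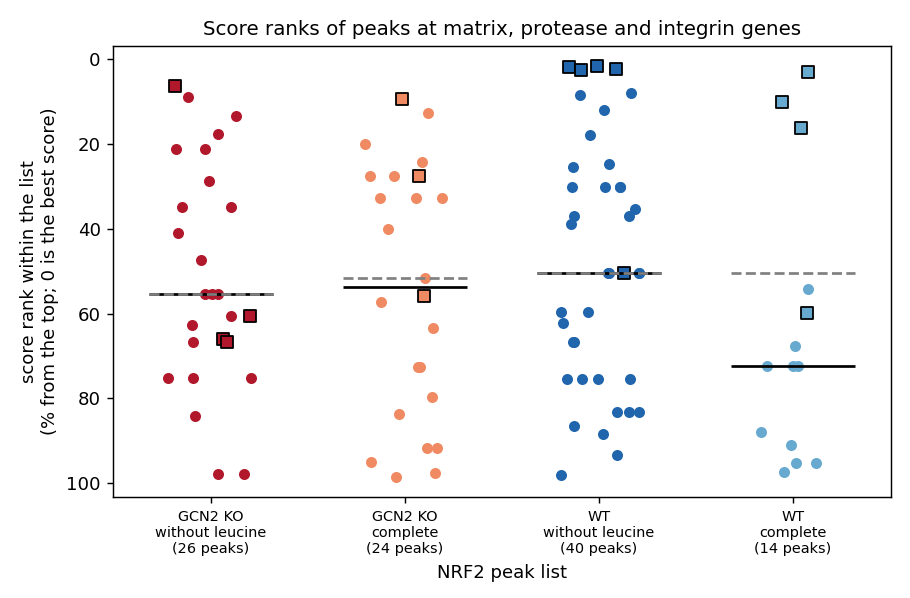
Points are the 104 peaks by list, plotted by score rank as a percentage of the list from the top; squares outlined in black mark windows shared with another list, solid lines the median of these peaks and dashed lines the median of all peaks within 50 kb. The solid line is close to the dashed line except in WT in complete medium, at 72.3% beside 50.6%, and 7 of the shared windows are in the upper 10% of their list.

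Shared windows were concentrated at the top of the score range, as they were over all genes. Of the 10 peaks in the upper 10% of their list, 7 were in a region of 2 or more lists (70%, interval 34.8 to 93.3), beside 85.2% of all such peaks within 50 kb. The other 3 were at Itgb1bp1, Col18a1 and Adam11. Of the 94 peaks below that rank, 9 were shared (9.57%, 4.47 to 17.4), beside 9.43%.

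By position, 61 of the 104 peaks were in introns (58.7%, interval 48.6 to 68.2), 27 were intergenic (26%, 17.9 to 35.5), 13 in exons (12.5%, 6.83 to 20.4) and 3 at promoters (2.88%, 0.599 to 8.20). Over all peaks within 50 kb the shares were 47.9%, 36.5%, 6.5% and 3.42%. No peak was annotated to a transcription termination site or a 3' UTR, which took 2.42% and 2.28% of all peaks. Sites in several lists count more than once in these shares. Counted once per region, a setting added after seeing the data, introns held 53 of 94 regions (56.4%, 45.8 to 66.6), beside 48.2% of all regions within 50 kb. Intergenic regions numbered 26 (27.7%, 18.9 to 37.8), beside 35.8%, and exon regions 12 (12.8%, 6.77 to 21.2), beside 7.11%. These 3 intervals include the shares over all regions. These genes are longer than most, and the part of gene length in the intron share was not tested. By list, introns held 18 of 26 peaks (69.2%) in GCN2 KO without leucine, 14 of 24 (58.3%) in GCN2 KO in complete medium, 19 of 40 (47.5%) in WT without leucine and 10 of 14 (71.4%) in WT in complete medium, beside 45.9%, 48.8%, 48.7% and 48.4% of all peaks. Intergenic windows numbered 4, 8, 14 and 1, where all peaks gave 40.2%, 36.1%, 34.2% and 36.7%.

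The 3 promoter windows were the one assigned to Col4a3 and those at Col6a2 (score 24) and Col27a1 (score 20), both in WT without leucine. With Col6a5 (230 bp, score 23, intron 1 of 40, WT without leucine) and Lamc1, they are the 5 peaks within 1 kb of a TSS (4.81%), beside 6.7% of all peaks within 50 kb. Within 10 kb lay 39 peaks (37.5%), beside 39.5%, within 25 kb 74 (71.2%), beside 72%, and 36 (34.6%) were upstream of the TSS, beside 41%. Repeats were named for 28 windows (26.9%, 18.7 to 36.5), beside 23.9%, among them 11 SINE, 9 LTR and 4 LINE elements. By list these were 9, 9, 7 and 3 windows, where all peaks gave 26.9%, 23.7%, 21.7% and 24.2%. The Mmp19 site counts once in each list here, and the interval treats its windows as independent. Of 70 intron or exon windows whose transcript could be matched, 11 (15.7%) lay in a gene other than the one assigned, beside 31.2%.

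**Figure D4:**
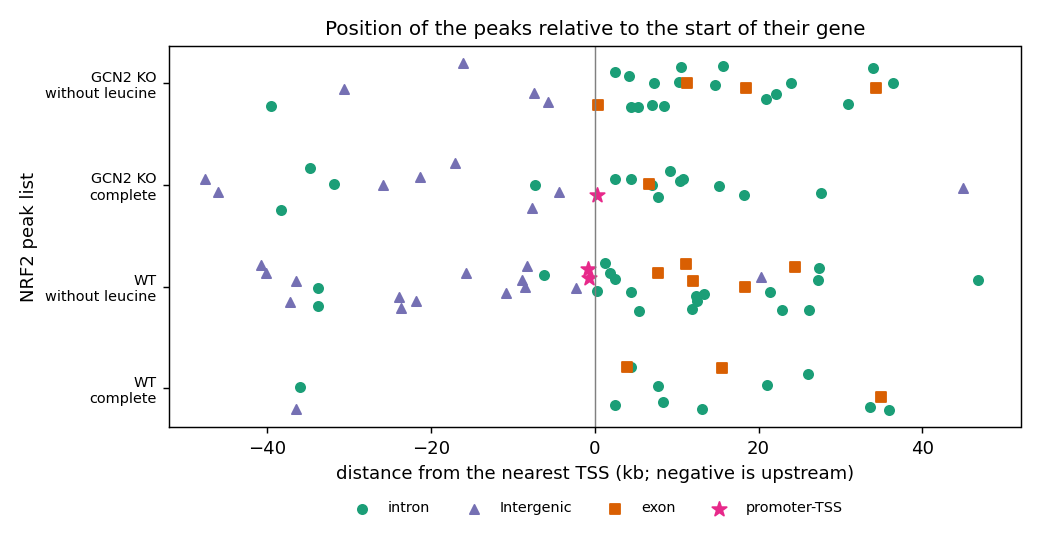
Each point is a peak, placed by its distance from the nearest TSS in kb (negative is upstream) and by list; shape and colour give the authors' feature class. Intron windows lie mostly downstream, intergenic windows mostly upstream, and 5 of the 104 peaks are within 1 kb of the TSS.

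Leucine withdrawal was compared with complete medium within each genotype. In GCN2 KO, peaks near these genes made 0.907% of all peaks within 50 kb without leucine (interval 0.593 to 1.33). In complete medium they made 1.19% (0.763 to 1.76). In WT the shares were 0.966% (0.691 to 1.31) and 0.901% (0.494 to 1.51), and these intervals overlap. Over all protein-coding genes, 2149 and 1561 had a peak within 50 kb in GCN2 KO without and with leucine, and 2959 and 1229 in WT. Of the 70 genes, 24 had a peak without leucine and 24 in complete medium in GCN2 KO cells. Of these, 6 were in both lists, among them Adam23, Col13a1, Col18a1, Col6a1 and Mmp19. The 6 made 25% of either list, beside 25.2% of all protein-coding genes of the list without leucine and 34.7% of those of the complete-medium list. At 3 of the 6, Adam23, Mmp19 and Col18a1, the sites overlapped. In WT cells 36 genes had a peak without leucine and 14 in complete medium. The 7 in both were Adam12, Adam23, Adamts14, Itga6, Itga9, Itgb5 and Mmp19, 19.4% of the list without leucine and 50% of the complete-medium list, beside 18.3% and 44% for all genes. Adam12, Adam23, Itgb5 and Mmp19 had overlapping sites.

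GCN2 KO was then compared with WT in each medium. Over all protein-coding genes, 2149 had a peak within 50 kb in GCN2 KO and 2959 in WT without leucine, and 1561 and 1229 in complete medium. Of the 70 genes, the numbers without leucine were 24 in GCN2 KO and 36 in WT, with 10 in both. The 10 made 41.7% of the GCN2 KO genes and 27.8% of the WT genes, beside 36.4% and 26.5% for all genes. These were Adam23, Adamts20, Col11a2, Col13a1, Col18a1, Col20a1, Col6a1, Itgb2l, Itgb4 and Mmp19, and Adam23, Mmp19 and Itgb4 had overlapping sites. In complete medium the numbers were 24 in GCN2 KO and 14 in WT, with Adam23, Adamts18, Itga9 and Mmp19 in both. These made 16.7% of the GCN2 KO genes and 28.6% of the WT genes, beside 21.3% and 27% for all genes, and Adam23 and Mmp19 had overlapping sites. Over the 4 comparisons, the widest gap from all genes was at GCN2 KO in complete medium against GCN2 KO without leucine, 25% beside 34.7%. Each share rests on 10 or fewer genes in both lists, and the gaps were not tested. With lists of equal length the genes numbered 11 in GCN2 KO without leucine, 16 in GCN2 KO in complete medium, 17 in WT without leucine and 14 in WT in complete medium, so the GCN2 KO counts, equal before, then differed.

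The limit of 50 kb left sites out. Just inside it were Adamts18 at -47682 bp (score 20, GCN2 KO in complete medium) and Adamts19 at 46757 bp (score 36, WT without leucine). Just outside were Col6a5 at -50274 bp (score 27, GCN2 KO in complete medium) and Col4a3 at 50590 bp (score 22, WT without leucine). A pair of intron sites beyond the limit, singled out after the values were seen, was in all 4 lists. One was 54179 bp downstream of the TSS of Col4a1 in GCN2 KO without leucine; Col4a1 encodes a chain of the common type IV collagen, with scores of 60, 53, 84 and 125 in GCN2 KO without leucine, GCN2 KO in complete medium, WT without leucine and WT in complete medium. The other was 186698 bp downstream of the TSS of Col25a1 in that list, with scores of 119, 66, 58 and 43.

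Neighbouring genes contributed several entries. Of the 70 genes, 20 stood in 7 groups whose starts were at most 500 kb apart. The largest by peaks was on chromosome 10, where Col6a2, Col6a1, Col18a1 and Itgb2 held 10 peaks in 9 regions over 914 kb. Col6a6, Col6a5 and Col6a4 on chromosome 9 held 4 peaks in 4 regions over 298 kb.

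A list of 102 other matrix and adhesion genes, chosen with earlier results of these data known, gave 12 genes with a peak within 50 kb in GCN2 KO without leucine (11.8%), 6 in GCN2 KO in complete medium (5.88%), 19 in WT without leucine (18.6%) and 10 in WT in complete medium (9.80%), beside 9.81%, 7.13%, 13.5% and 5.61% of all protein-coding genes. Shared sites were at 3 of them. Zyx, which encodes the focal adhesion protein zyxin, had an upstream site in all 4 lists, at -9668 bp in GCN2 KO without leucine, in an LTR element, with scores of 52 and 86 in GCN2 KO without and with leucine and 218 and 94 in WT without and with leucine. Cyr61, a matricellular protein that binds integrins, had an intergenic site in both GCN2 KO lists, of score 94 (rank 246 of 4600) without leucine and 98 (rank 187 of 3141) in complete medium. Gpc1, a glypican, had a site in both WT lists, of score 42 without leucine and 40 in complete medium. By group, matrix glycoproteins numbered 5, 2, 5 and 2 of 26, proteoglycan and hyaluronan genes 2, 1, 4 and 1 of 24, CCN genes 2, 1, 1 and 2 of 5, collagen processing genes 0, 0, 3 and 1 of 14, plasminogen system genes 1, 0, 1 and 0 of 12, and integrin adaptors 2, 2, 5 and 4 of 21.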

How the data were processed

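Per the labels' protocols, the ChIP libraries were read from 1 end over 50 bases. BWA 0.7.12, MACS2 2.1.0, HOMER 4.7 and mm10 are named in the submitters' processing notes, without settings. Per the file headers, each library had its own peak call, with the leucine-fed input of its genotype as control, and HOMER assigned the nearest TSS. No leucine-free input entered the calls. The 2 input libraries were not analysed here. The peak score is deposited as a whole number of 13 or more, and the caller's column behind it is not stated. It was used for ranks within a list, tied scores sharing the best rank. GC content was deposited as a fraction of the window and is printed as a percent.

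Windows of 300 bp (301 positions with both ends) that overlapped by at least 1 bp across lists were merged into regions. Membership of the upper 50% of a list used mean ranks of ties. Symbols and transcripts were matched to the RefSeq table of GRCm38.p6, and all 70 genes matched. Promoter sequences are from RefSeq. The merging step was tested on simulated positions, and the name rule on a set of gene symbols with known answers. Work was done in Python 3.11.15 with pandas 2.3.3 and scipy 1.17.1.

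The genes and lists were chosen with earlier results of these data known. Genes were named where a region was in 2 or more lists, where a gene had 4 or more peaks, for the 10 best-ranked peaks of each list, for peaks within 1 kb or at promoters or exons, and at the 50 kb limit; beyond these, genes were named to show a family. The values of 1 gene are counted in totals and not reported here. Window sequences were not searched for motifs, which had been planned. Alternatives were other distances, lists cut to equal length or to their higher-scoring 50%, windows without repeats, 1 peak per region, and 2 other overlap rules.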

Additional observations from a re-analysis of the deposited data

Results flagged for a closer look

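Differences between single lists that had opposite signs in the 2 genotypes or the 2 media were not tested, since each list is 1 library. GCN2 KO minus WT was -12 genes and -14 peaks without leucine, and 10 genes and 10 peaks in complete medium. For collagen genes the same differences were -5 without leucine and 6 in complete medium. The whole lists differ in the same directions, with 4600 peaks in GCN2 KO and 5980 in WT without leucine, and 3141 in GCN2 KO and 2336 in WT in complete medium. The share of peaks in the upper 50% of the list differed between GCN2 KO and WT by -2.69 percentage points without leucine and by 24.4 in complete medium. Without leucine minus complete medium, that share differed by -3.53 percentage points in GCN2 KO and by 23.6 in WT; the WT value in complete medium rests on 14 peaks. ADAM genes differed by -1 in GCN2 KO and by 1 in WT between the media. Families with fewer than 10 genes with a peak were not compared in this way.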

How the results depend on the processing

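Counts per list are given in the order GCN2 KO without leucine, GCN2 KO in complete medium, WT without leucine, WT in complete medium. Of 69 values recomputed, 34 stayed within 1.5 times the reported count or within the interval of the reported share, and the others follow. The intervals are wide, so shares in the upper 50% of the list could move far and still count among the 34. They are therefore given for every list. Within 10 kb both genes and peaks numbered 10, 10, 14 and 5, and the share in the upper 50% was 40%, 50%, 28.6% and 40%. Within 1 kb genes numbered 1, 1, 3 and 0, and at any distance 37, 31, 54 and 21. The higher-scoring 50% of each list held 11, 11, 17 and 3 genes and 11, 11, 18 and 3 peaks, in 37 regions, 3 in 2 or more lists and 1 in all 4. At equal lengths genes numbered 11, 16, 17 and 14 and peaks 11, 16, 18 and 14, in 52 regions, 4 in 2 or more lists and 1 in all 4. Without repeats genes numbered 16, 15, 30 and 11 and peaks 17, 15, 33 and 11, with 1 region in all 4 lists, since the Mmp19 windows are repeats. The share in the upper 50% was then 23.5%, 40%, 42.4% and 18.2%. In the higher-scoring 50% of the lists the Mmp19 site was in 4, the Adam23 site in 3, the Itgb5 site in 1 and the Col18a1 and Itgb4 sites in 0. At equal lengths the Itgb4 site was in 0, the Col18a1 site in 1 and the Adam23 site in 3, without repeats the Itgb5 site was in 1, and a reciprocal overlap of 50% separated the Col18a1 windows. Collagen genes in the higher-scoring 50% numbered 3, 3, 4 and 0, a setting chosen after seeing the data. Apart from smaller or larger sets of peaks, the cause of these differences was not tested. Depth is unknown, and sites without a peak in a list may have missed the call threshold. No paired analysis was possible because each group has 1 library.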
